A study of Mus musculus with 8 samples.

Results

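The genes described here encode the machinery that brings new proteins to the endoplasmic reticulum (ER) and moves them into or across its membrane. They were taken by symbol from a list of 41 genes in 5 subgroups, namely the translocon (the SEC61 channel, SEC62 and SEC63, the TRAP complex, TRAM and RAMP4), the signal recognition particle (SRP) and its receptor, signal peptidase, the ER membrane protein complex (EMC) and the GET pathway. The table holds 39 of the 41 among its 16538 genes. The symbols Wrb and Camlg were not found and were dropped, and the table lists the same genes under the names Get1 and Caml, which are given separately at the end. By subgroup, 13 genes belong to the translocon, 8 to SRP and its receptor, 5 to signal peptidase, 9 to the EMC and 4 to the GET pathway.

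The 4 control and 4 Sel1l CKO libraries were made from DN3 thymocytes, early T cell precursors without CD4 or CD8 that rearrange the T cell receptor beta gene, of 6-week-old C57BL/6 mice. All mice carried floxed Sel1l alleles (Sel1l-f/f), and the Sel1l CKO mice also carried hCD2cre, an iCre recombinase under the human CD2 promoter, so the loss of Sel1l and the presence of the recombinase cannot be told apart in these groups. SEL1L is the adaptor of the HRD1 ubiquitin ligase in ER-associated degradation, which removes misfolded proteins from the ER, and the comparison asks how DN3 thymocytes that lack it differ in their transcripts. The methods describe replicates as independent and biological, neither they nor the labels say whether a library came from 1 mouse or from a pool, and values are given in the order of replicates 1 to 4.

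Most secreted and membrane proteins begin with a signal sequence that SRP binds as it leaves the ribosome. SRP pauses translation, docks at its receptor on the ER and hands the ribosome to the SEC61 channel, where TRAP and TRAM assist the passage of the chain and signal peptidase cuts the signal sequence off. The EMC and the GET pathway serve other clients. The EMC inserts membrane segments that SEC61 handles poorly, and the GET pathway delivers proteins anchored by a single segment at their tail after translation has ended. Many SRP-pathway and translocon genes are known as targets of the unfolded protein response in secretory cells, in particular of the transcription factor XBP1.

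The libraries held between 32900253 and 50401359 reads counted on genes, as recovered from the steps between RPKM values (reads per kilobase of gene, scaled to sequencing depth). Sel1l, the targeted gene, was at 1.83, 1.66, 1.61 and 1.57 RPKM in the control libraries and at 0.917, 0.876, 1.32 and 1.23 RPKM in the Sel1l CKO libraries (log2 fold change -0.59, SE 0.13, adjusted p = 0.0327 by limma), and these reads cover the whole gene, deleted part or not. Its call did not hold when any control library, Sel1l CKO replicate 1 or Sel1l CKO replicate 2 was left out, with the highest adjusted p at 0.0981. All 10 listed DN3 markers, among them Il2ra, Ptcra and Notch3, had a mean of at least 1 RPKM, none was called, and their summed level was 390 to 486 RPKM in control and 305 to 360 RPKM in Sel1l CKO. Every Sel1l CKO library was below every control library for Notch3 (17.5 to 20.7 RPKM in control, 7.61 to 17.2 RPKM in Sel1l CKO), Cd3e (36.3 to 42.0 against 28.5 to 34.2 RPKM) and Cd3g (84.5 to 104 against 71.0 to 82.0 RPKM). This held for 5.59% of all genes tested. The 7 plasma and B cell markers used, listed because plasma cells express this machinery strongly, summed to 8.32 to 10.4 RPKM in control and 5.56 to 8.37 RPKM in Sel1l CKO, with Ms4a1, Sdc1 and Prdm1 under 0.1 RPKM in every library. Nearly all of this sum was Cd79b, at 8.18 to 10.1 RPKM in control and 5.28 to 8.17 RPKM in Sel1l CKO. The summed levels of myeloid, thymic epithelial and DP thymocyte markers had overlapping or lower ranges in Sel1l CKO (5 myeloid markers 3.497 to 6.16 against 1.91 to 3.97 RPKM, 6 thymic epithelial markers 3.37 to 5.13 against 2.17 to 2.54 RPKM, with Epcam called lower, and 5 DP thymocyte markers 15.4 to 18.7 against 11.2 to 13.9 RPKM). Those of gamma delta T cells overlapped (5 markers, 4.65 to 5.11 against 3.16 to 6.39 RPKM), and 4 erythroid markers reached 0.0657 to 0.706 against 0.315 to 1.61 RPKM. Most of the thymic epithelial sum was Epcam, at 3.04 to 4.87 RPKM in control and 1.79 to 2.23 RPKM in Sel1l CKO. The 6 immediate early genes, which handling of cells can raise, summed to 316 to 1412 RPKM in control and 151 to 537 RPKM in Sel1l CKO, and their part in the results was not tested. Sel1l CKO replicates 3 and 4 stood apart from the other 6 libraries on the second principal component (22.1% of the variance), at -15.2 and -15.8. Control replicates 3 and 4 were at -4.68 and 3.43 on it, and control replicates 1 and 2 at 8.41 and 8.02. In these bulk samples, fewer cells of a type and less RNA per cell cannot be told apart.

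Transcripts of the SRP-to-SEC61 route were higher in Sel1l CKO DN3 thymocytes, and those of the EMC and the GET pathway were not called in either direction. Of the 39 genes, 34 had a mean of at least 1 RPKM over the 8 libraries and were tested with limma on log2(RPKM + 0.1) among 6512 genes. Higher levels in Sel1l CKO at a limma adjusted p under 0.05 were found for 18 of the 34, against 4.27% of all genes tested. None was lower, against 1.01% of all genes, and limma voom on the recovered reads also called none lower. At an unadjusted limma p under 0.05, 22 of the 34 were higher, against 11.3% of all genes tested, and 0 were lower, against 9.54%. With a log2 fold change over 0.59 as a further condition, 12 of the 34 remained, against 2.47% of all genes. The median log2 fold change was 0.38 over the 34 genes and 0.010 over all genes tested. The 18 higher genes split by subgroup as 9 of 11 tested translocon genes, 5 of 7 genes of SRP and its receptor, 4 of 5 signal peptidase genes, 0 of 7 EMC genes and 0 of 4 GET genes. The level in Sel1l CKO was between 1.28 and 2.76 times that in control for these 18 genes, and none of the 18 had a Sel1l CKO library as low as any control library. Including 3 genes without a call, this held for 21 of the 34 genes, against 9.15% of all genes tested, and 0 of the 34 lay below in every Sel1l CKO library, against 5.59%. The log2 fold change was above 0 for 28 of the 34, against 52.6% of all genes tested. Each tested gene rested on at least 1026 recovered reads per library and at most 22342.

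**Figure D1:**
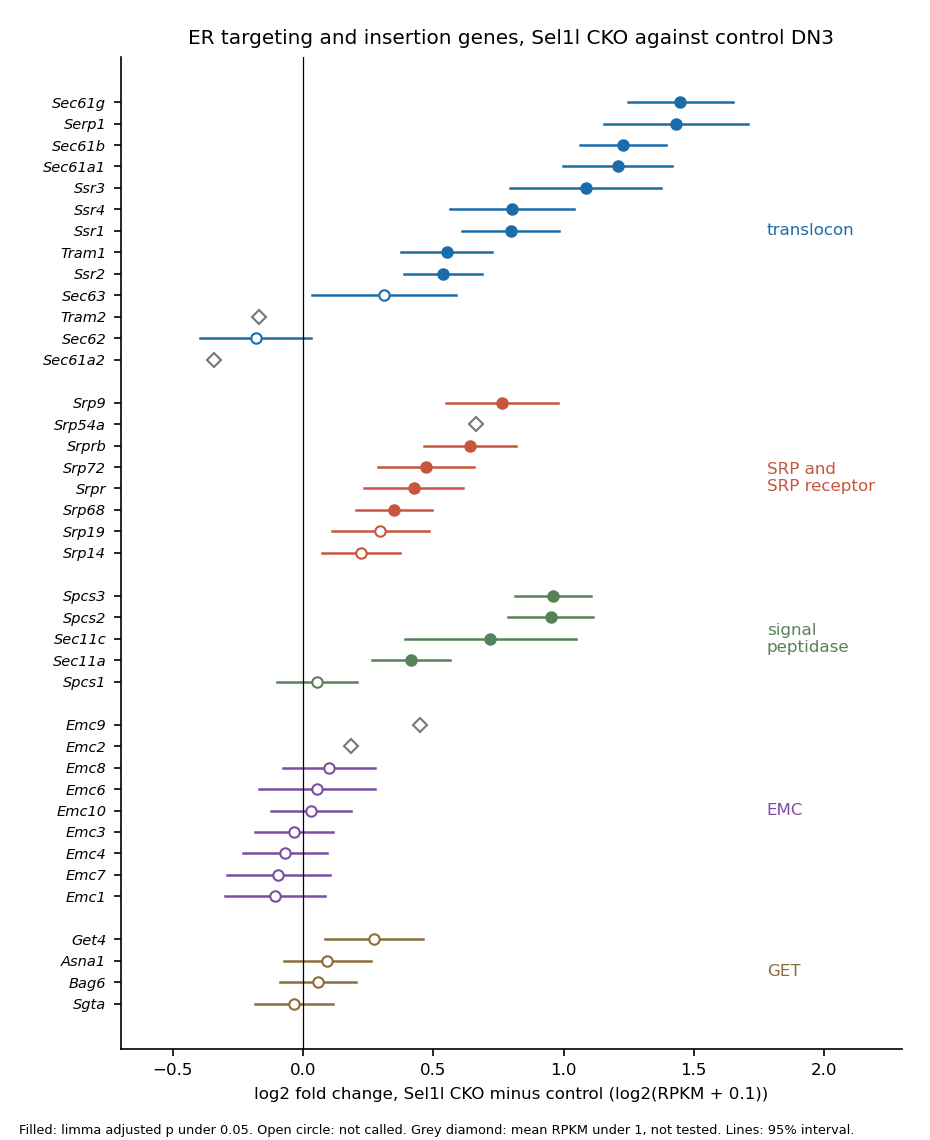
Log2 fold change of each of the 39 genes (x axis, Sel1l CKO minus control on the log2(RPKM + 0.1) scale), ordered within the 5 subgroups. Filled circles are genes with a limma adjusted p under 0.05, open circles were tested and not called, lines are 95% intervals, and grey diamonds are genes with a mean under 1 RPKM. All filled circles lie in the translocon, SRP and signal peptidase subgroups, and the 7 tested EMC genes lie between -0.11 and 0.10.

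The promoters of these genes were read for letters bound by the factors of the unfolded protein response, in RefSeq windows of GRCm38.p6 that run from 250 bases before to 50 bases after the start. Windows were matched by symbol for 29 of the 39 genes, 12 of them among the 18 higher genes. The higher genes without a window were Sec11c, Sec61a1, Spcs3, Srp68, Ssr2 and Tram1. On both strands, none of the 29 held the ER stress response element ERSE (CCAAT and CCACG set 9 bases apart, present in 0.137% of all genes with a window), ERSE-II (ATTGG and CCACG set 1 base apart, 0.0444%), the UPRE letters TGACGTGG (0.714%) or the ATF4 composite element TGATGCAA (1.03%). At shares this low, a set of 29 genes can easily hold no match, so the absence is not read as a result. The shorter letters GCCACGT, a core that XBP1 binds, share CCACG with ERSE and ERSE-II and overlap the reverse complement of the UPRE letters, and they were added after that search. They occurred in 6 of the 29 genes, against 2.95% of all genes, and these were Ssr1, Ssr3 and Srprb, which were called higher, and Spcs1, Sec63 and Get4, which were not. The stretches are shown because they hold the letters that the 6 genes share, 5′ to 3′ on the strand of the gene, with GCCACGT or its reverse complement ACGTGGC in capitals. The Srprb stretch is shorter because it lies inside the GENCODE gene.
Ssr1 (chr13:37994209-37994332, minus strand): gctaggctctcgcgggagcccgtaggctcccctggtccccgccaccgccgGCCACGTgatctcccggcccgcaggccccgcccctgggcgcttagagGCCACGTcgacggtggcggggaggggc
Ssr3 (chr3:65392688-65392794, minus strand): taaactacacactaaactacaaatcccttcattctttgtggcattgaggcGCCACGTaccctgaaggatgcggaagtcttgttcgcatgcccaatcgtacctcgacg
Srprb (chr9:103202085-103202114, minus strand): gtggagcctagaGCCACGTaactttggcgg
Spcs1 (chr14:31001671-31001777, minus strand): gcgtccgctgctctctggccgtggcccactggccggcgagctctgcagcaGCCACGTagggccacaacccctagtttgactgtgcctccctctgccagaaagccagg
Sec63 (chr10:42761423-42761495, plus strand): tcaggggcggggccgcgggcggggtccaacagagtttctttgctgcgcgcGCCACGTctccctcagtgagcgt
Get4 (chr5:139252074-139252142, plus strand): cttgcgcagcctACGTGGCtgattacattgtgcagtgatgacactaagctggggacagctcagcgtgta
In Ssr1 the letters stood 74 and 27 bases before the RefSeq start, in Srprb 37, in Spcs1 61, in Sec63 23, in Ssr3 191 and in Get4 238 bases before it. A match is a description of the sequence and not a binding site, and 3 of the 12 higher genes with a window held it.

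The SEC61 channel is a trimer, and the transcripts of its 3 tested subunits were all higher in Sel1l CKO, at 2.33 to 2.76 times the control mean. Sec61a1 (ENSMUSG00000030082.14, chromosome 6 of GRCm38, 88503579 to 88518905, minus strand), which encodes the channel-forming alpha subunit, was at 13.7, 13.5, 14.7 and 14.2 RPKM in the control libraries and at 29.4, 29.0, 34.9 and 37.7 RPKM in the Sel1l CKO libraries. Its mean went from 14.0 ± 0.552 to 32.8 ± 4.27 RPKM (SD, n = 4 each) (log2 fold change 1.21, SE 0.093, adjusted p = 7.38e-05 by limma). Sec61b (ENSMUSG00000053317.11, chromosome 4 of GRCm38, 47474658 to 47483242, plus strand), which encodes the small beta subunit, was at 13.2, 15.8, 15.3 and 14.9 RPKM in the control libraries and at 37.3, 32.9, 34.6 and 34.2 RPKM in the Sel1l CKO libraries. Its mean went from 14.8 ± 1.10 to 34.8 ± 1.84 RPKM (SD, n = 4 each) (log2 fold change 1.23, SE 0.073, adjusted p = 1.57e-05 by limma). Sec61g (ENSMUSG00000078974.10, chromosome 11 of GRCm38, 16500530 to 16508484, minus strand), the gamma subunit that clamps the channel, had the largest log2 fold change of the 34 genes. It was at 6.52, 6.88, 7.54 and 7.33 RPKM in the control libraries and at 20.4, 16.7, 21.6 and 19.4 RPKM in the Sel1l CKO libraries, and its mean went from 7.07 ± 0.460 to 19.5 ± 2.09 RPKM (SD, n = 4 each) (log2 fold change 1.45, SE 0.09, adjusted p = 1.76e-05 by limma). The log2 ratio of Sec61g to Sec61b was 0.22 (SE 0.076) higher in Sel1l CKO. In each of these 3 genes the lowest Sel1l CKO library was far above the highest control library.

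The paralogous alpha subunit gene Sec61a2 stood apart. It was at 0.903, 0.761, 1.02 and 0.762 RPKM in the control libraries and at 0.575, 0.475, 0.787 and 0.837 RPKM in the Sel1l CKO libraries, with overlapping groups and a mean under 1 RPKM, so it was not tested with limma (log2 difference -0.34, exact permutation test, two-sided, unadjusted p = 0.171). The log2 ratio of Sec61a1 to Sec61a2 was 3.89 ± 0.154 in control and 5.44 ± 0.161 in Sel1l CKO (SD, n = 4 each). This change of 1.55 (SE 0.11), with no overlap between the groups, is given as a description. It is the largest of 8 pairs of partner or paralogous subunits that were chosen after the values were seen, so no test is given for any of them. The level of each such ratio depends on the lengths that RPKM divides by, which here span introns. Only its change between the genotypes can be read. The accessory genes Sec62 and Sec63, whose proteins assist SEC61 in taking in chains after translation, were not called. Sec62 was at 2.17, 2.06, 2.51 and 2.39 RPKM in the control libraries and at 1.75, 2.23, 1.95 and 2.07 RPKM in the Sel1l CKO libraries (log2 fold change -0.18, SE 0.094, adjusted p = 0.310 by limma), and Sec63 had a log2 fold change of 0.31 (95% interval 0.033 to 0.59, limma adjusted p = 0.195). Their log2 ratio, Sec63 to Sec62, went from -0.72 ± 0.070 to -0.22 ± 0.196 (SD, n = 4 each). Within replicates 1 and 2 this ratio changed by 0.29 and within replicates 3 and 4 by 0.70.

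TRAP, the translocon-associated protein complex, binds next to SEC61 and helps signal sequences that open the channel weakly. All 4 of its subunit genes were called higher, with a median log2 fold change of 0.80. Ssr3 (ENSMUSG00000027828.12, chromosome 3 of GRCm38, 65379655 to 65392623, minus strand), the gamma subunit, rose most. It was at 11.1, 12.4, 14.8 and 13.1 RPKM in the control libraries and at 23.0, 24.2, 31.2 and 31.5 RPKM in the Sel1l CKO libraries (log2 fold change 1.08, SE 0.13, adjusted p = 9.93e-04 by limma). In Sel1l CKO, replicates 3 and 4 were above replicates 1 and 2, and the lowest of the 4 was still above all control libraries. Ssr4, the delta subunit on chromosome X, was at 19.1, 19.9, 22.8 and 20.1 RPKM in the control libraries and at 32.3, 31.0, 40.2 and 40.4 RPKM in the Sel1l CKO libraries (log2 fold change 0.80, SE 0.11, adjusted p = 0.00178 by limma). Ssr1, the alpha subunit whose promoter holds GCCACGT in 2 places, was at 6.30, 6.49, 7.11 and 6.50 RPKM in the control libraries and at 10.5, 10.7, 12.96 and 12.1 RPKM in the Sel1l CKO libraries (log2 fold change 0.80, SE 0.083, adjusted p = 4.33e-04 by limma). Both showed the same order, with Sel1l CKO replicates 3 and 4 highest. Ssr2, the beta subunit, was at 10.8, 11.4, 11.6 and 11.5 RPKM in the control libraries and at 16.6, 14.9, 17.0 and 17.3 RPKM in the Sel1l CKO libraries, and its mean went from 11.3 ± 0.376 to 16.5 ± 1.10 RPKM (SD, n = 4 each) (log2 fold change 0.54, SE 0.067, adjusted p = 0.00132 by limma). It had the smallest log2 fold change of the 9 translocon genes called.

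Serp1 (ENSMUSG00000027808.8, chromosome 3 of GRCm38, 58519817 to 58525892, minus strand) encodes RAMP4, a small protein that sits in the channel complex and was named for its induction by stress. It was at 17.4, 22.6, 23.9 and 21.1 RPKM in the control libraries and at 52.7, 49.4, 65.4 and 62.6 RPKM in the Sel1l CKO libraries. Its mean went from 21.3 ± 2.83 to 57.5 ± 7.69 RPKM (SD, n = 4 each), a ratio of 2.71 (log2 fold change 1.43, SE 0.12, adjusted p = 1.40e-04 by limma). It had the highest RPKM per gene span of the translocon genes. Per kilobase of exon its control mean was 28.0 RPKM, below that of Sec61b at 99.9 RPKM. Tram1, which encodes the translocating chain-associated membrane protein, was at 2.699, 3.24, 3.35 and 2.96 RPKM in the control libraries and at 4.42, 4.67, 4.58 and 4.41 RPKM in the Sel1l CKO libraries (log2 fold change 0.55, SE 0.077, adjusted p = 0.00283 by limma). Its Sel1l CKO libraries lay close together, all above the control libraries. The paralog Tram2 was at 0.233, 0.253, 0.254 and 0.180 RPKM in control and 0.171, 0.172, 0.219 and 0.207 RPKM in Sel1l CKO, below the level needed for the test (log2 difference -0.17, exact permutation test, two-sided, unadjusted p = 0.114). Over the 11 tested translocon genes, the median log2 fold change was 0.80.

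**Figure D2:**
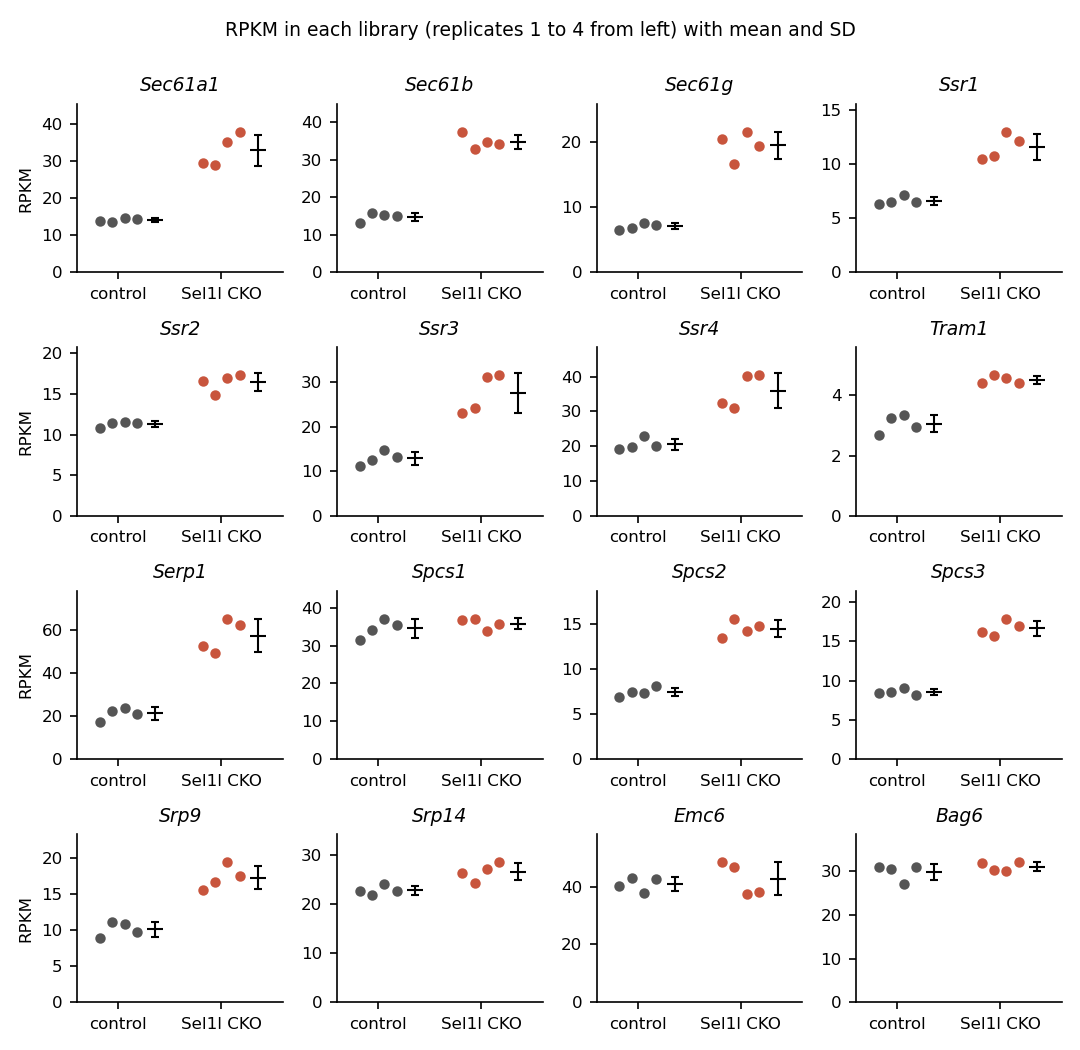
RPKM of 16 genes in each library, one panel per gene (y axis, RPKM from 0; grey points control replicates 1 to 4, red points Sel1l CKO replicates 1 to 4 from left to right; bars are the mean and SD of 4 libraries). Sec61a1, Sec61b, Sec61g, the 4 Ssr genes, Tram1, Serp1, Spcs2, Spcs3, Srp9 and Srp14 show no overlap between the groups, and Spcs1, Emc6 and Bag6 do.

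SRP is built from an RNA and 6 proteins, and its receptor from 2. The 5 tested SRP protein genes had log2 fold changes from 0.22 to 0.76, less than those of the SEC61 genes. Every Sel1l CKO library was above every control library in all 5, against 9.15% of all genes tested. Srp9 (ENSMUSG00000026511.7, chromosome 1 of GRCm38, 182124737 to 182132407, plus strand) belongs to the part of the particle that slows translation. It was at 8.87, 11.2, 10.8 and 9.77 RPKM in the control libraries and at 15.6, 16.7, 19.4 and 17.5 RPKM in the Sel1l CKO libraries (log2 fold change 0.76, SE 0.095, adjusted p = 0.00132 by limma). Srp14, whose protein is the direct partner of SRP9, was at 22.7, 22.0, 24.1 and 22.7 RPKM in the control libraries and at 26.5, 24.5, 27.3 and 28.6 RPKM in the Sel1l CKO libraries and was not called (log2 fold change 0.22, SE 0.067, adjusted p = 0.102 by limma). The log2 ratio of Srp9 to Srp14 went from -1.17 ± 0.156 to -0.63 ± 0.129 (SD, n = 4 each), a change of 0.54 (SE 0.10). Replicates 1 and 2 alone gave 0.50 and replicates 3 and 4 alone gave 0.58, and the ratio did not overlap between the groups.

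Srp68 and Srp72 encode the largest SRP proteins, which form a heterodimer. Srp68 was at 9.33, 9.43, 9.07 and 9.41 RPKM in the control libraries and at 10.9, 11.7, 12.2 and 12.8 RPKM in the Sel1l CKO libraries (log2 fold change 0.35, SE 0.065, adjusted p = 0.0134 by limma). Srp72 was at 6.07, 5.96, 6.00 and 6.52 RPKM in the control libraries and at 7.41, 8.46, 9.22 and 9.20 RPKM in the Sel1l CKO libraries (log2 fold change 0.47, SE 0.082, adjusted p = 0.00991 by limma). Control libraries were tight for both, and both log2 fold changes were under 0.59. Their log2 ratio, Srp72 to Srp68, was 0.12 (SE 0.041) higher in Sel1l CKO, with overlapping groups. Srp19, needed for the assembly of the particle, was not called, with a log2 fold change of 0.30 (95% interval 0.11 to 0.48, limma adjusted p = 0.0777). Srp54a encodes the subunit that holds the signal sequence. It was listed at 0.155, 0.159, 0.172 and 0.152 RPKM in control and 0.276, 0.307, 0.378 and 0.287 RPKM in Sel1l CKO, on 136 to 367 recovered reads, and fell under the level for the test (log2 difference 0.66, exact permutation test, two-sided, unadjusted p = 0.0286). This p is the smallest that the test can give here, and any gene without overlap between the groups reaches it. Near-identical copies of Srp54a lie beside it, Srp54c among them, and reads that fit several copies may have been lost or split, so its level is uncertain.

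Both receptor subunit genes were higher. Srpr, the alpha subunit that docks SRP, was at 2.25, 2.19, 2.40 and 2.22 RPKM in the control libraries and at 2.87, 2.74, 3.39 and 3.34 RPKM in the Sel1l CKO libraries (log2 fold change 0.42, SE 0.084, adjusted p = 0.0191 by limma). Srprb, the beta subunit that anchors it in the membrane, was at 2.14, 2.37, 2.37 and 2.35 RPKM in the control libraries and at 3.36, 3.41, 4.03 and 3.85 RPKM in the Sel1l CKO libraries (log2 fold change 0.64, SE 0.079, adjusted p = 0.00126 by limma). The log2 ratio of Srprb to Srpr was 0.22 (SE 0.048) higher in Sel1l CKO, without overlap between the groups. The annotated span of Srpr overlaps 3 genes on the other strand (Fam118b, Foxred1 and Tirap), and whether the counting used the strand is not stated. The call of Srpr did not hold when control replicate 1, 2 or 4 or Sel1l CKO replicate 3 was left out, with the highest adjusted p at 0.0647. Over the 7 tested genes of SRP and its receptor, the median log2 fold change was 0.42.

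Signal peptidase is assembled from a catalytic subunit, SEC11A or SEC11C, and 3 accessory proteins. Spcs3 (ENSMUSG00000054408.9, chromosome 8 of GRCm38, 54520433 to 54529998, minus strand), an accessory subunit that the enzyme needs, was at 8.36, 8.54, 9.04 and 8.22 RPKM in the control libraries and at 16.2, 15.7, 17.9 and 17.0 RPKM in the Sel1l CKO libraries. Its mean went from 8.54 ± 0.356 to 16.7 ± 0.955 RPKM (SD, n = 4 each) (log2 fold change 0.96, SE 0.065, adjusted p = 3.32e-05 by limma). Spcs2 was at 6.96, 7.50, 7.31 and 8.12 RPKM in the control libraries and at 13.5, 15.6, 14.3 and 14.8 RPKM in the Sel1l CKO libraries (log2 fold change 0.95, SE 0.072, adjusted p = 6.71e-05 by limma). The groups were well apart in both genes. Spcs1, the third accessory subunit and the highest of the 5 in RPKM per gene span, was at 31.4, 34.1, 37.1 and 35.5 RPKM in the control libraries and at 36.6, 37.0, 33.8 and 35.7 RPKM in the Sel1l CKO libraries, with overlapping groups (log2 fold change 0.054, SE 0.068, adjusted p = 0.685 by limma, 95% interval -0.10 to 0.21). The log2 ratio of Spcs2 to Spcs1 went from -2.19 ± 0.092 to -1.30 ± 0.096 (SD, n = 4 each), a change of 0.90 (SE 0.066) without overlap between the groups. Replicates 1 and 2 alone gave 0.83 and replicates 3 and 4 alone gave 0.97. The level of this ratio depends on gene length. Per kilobase of exon, Spcs2 and Spcs1 had means of 37.7 and 41.3 RPKM in control and of 73.4 and 42.8 RPKM in Sel1l CKO.

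Both catalytic subunit genes were higher. Sec11a was at 1.39, 1.44, 1.44 and 1.49 RPKM in the control libraries and at 1.94, 1.95, 2.08 and 1.84 RPKM in the Sel1l CKO libraries (log2 fold change 0.41, SE 0.066, adjusted p = 0.00641 by limma). Sec11c was at 3.92, 4.13, 4.91 and 4.13 RPKM in the control libraries and at 5.52, 6.30, 8.61 and 8.32 RPKM in the Sel1l CKO libraries (log2 fold change 0.72, SE 0.15, adjusted p = 0.0212 by limma). Sec11c varied more, with Sel1l CKO replicates 3 and 4 above replicates 1 and 2, and its call did not hold when control replicate 1, 2 or 4 or Sel1l CKO replicate 4 was left out, with the highest adjusted p at 0.0719. The log2 ratio of Sec11c to Sec11a was 0.30 (SE 0.17) higher in Sel1l CKO, with overlapping groups. Sec11a overlaps Nmb by 188 bases on the same strand, where reads cannot be assigned to 1 of them. The median log2 fold change of the 5 signal peptidase genes was 0.72.

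None of the 7 tested EMC genes was called by limma or by limma voom, 0 had an unadjusted limma p under 0.05, and their median log2 fold change was -0.037. Emc6, which encodes a small core subunit of the insertase, had the highest RPKM per gene span. It was at 40.2, 42.9, 37.8 and 42.7 RPKM in the control libraries and at 48.4, 46.9, 37.4 and 38.0 RPKM in the Sel1l CKO libraries (log2 fold change 0.053, SE 0.10, adjusted p = 0.789 by limma). Sel1l CKO replicates 1 and 2 were above all control libraries and replicates 3 and 4 were not. Emc8, a subunit on the cytosolic side, had the highest log2 fold change of the 7 and was at 3.09, 3.19, 2.97 and 2.81 RPKM in the control libraries and at 3.60, 3.32, 3.10 and 2.96 RPKM in the Sel1l CKO libraries (log2 fold change 0.10, SE 0.078, adjusted p = 0.487 by limma). Emc1, the large lumenal subunit, had the lowest and was at 1.502, 1.33, 1.37 and 1.46 RPKM in the control libraries and at 1.32, 1.18, 1.48 and 1.26 RPKM in the Sel1l CKO libraries (log2 fold change -0.11, SE 0.085, adjusted p = 0.497 by limma). The groups overlapped in all 7. Emc1 lies almost wholly within the annotated span of Ubr4 on the same strand, so its level is uncertain. The 95% intervals of the 7 genes ran from -0.30 to 0.28, which leaves out a rise of the size of any tested SEC61 subunit.

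The other tested EMC genes were Emc3 and Emc10, which had log2 fold changes of -0.037 and 0.03, and Emc4 and Emc7, at -0.071 and -0.095. Emc2 and Emc9 were under a mean of 1 RPKM. Emc2 was at 0.376, 0.373, 0.392 and 0.406 RPKM in control and 0.410, 0.584, 0.429 and 0.405 RPKM in Sel1l CKO, and the Sel1l CKO mean rested on replicate 2 (exact permutation test, two-sided, unadjusted p = 0.0571). Emc9, a paralog of Emc8, was at 0.234, 0.216, 0.0300 and 0.168 RPKM in control and 0.258, 0.299, 0.128 and 0.289 RPKM in Sel1l CKO on 4 to 57 recovered reads per library, too few to separate the groups (exact permutation test, two-sided, unadjusted p = 0.286).

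The 4 tested GET genes were not called by limma or by limma voom either, with a median log2 fold change of 0.075, and 1 of them, Get4, had an unadjusted limma p under 0.05. Bag6, which encodes the scaffold of the complex that receives tail-anchored proteins, had the highest RPKM and was at 30.9, 30.4, 27.2 and 31.1 RPKM in the control libraries and at 32.0, 30.3, 30.01 and 32.1 RPKM in the Sel1l CKO libraries (log2 fold change 0.058, SE 0.065, adjusted p = 0.638 by limma). Sgta, the co-chaperone that hands clients to this complex, was at 8.51, 9.15, 8.85 and 9.15 RPKM in the control libraries and at 9.52, 8.14, 8.60 and 8.56 RPKM in the Sel1l CKO libraries (log2 fold change -0.035, SE 0.066, adjusted p = 0.794 by limma). Both stayed within a narrow range in all 8 libraries. Get4, the link between BAG6 and the targeting ATPase, was at 4.33, 4.38, 4.33 and 4.16 RPKM in the control libraries and at 5.96, 5.42, 4.59 and 4.99 RPKM in the Sel1l CKO libraries. Every Sel1l CKO library was above every control library, but it was not called (log2 fold change 0.27, SE 0.083, adjusted p = 0.105 by limma). Without Sel1l CKO replicates 3 and 4 its log2 fold change was 0.40 (adjusted p = 0.0126 by limma). That fit was chosen after seeing the data. Over all genes it called 703 higher and 625 lower, against 278 and 66 in the main fit, so Get4 is left without a call. Asna1, the targeting ATPase itself, had a log2 fold change of 0.093 (95% interval -0.074 to 0.26, limma adjusted p = 0.497). The receptor genes listed as Get1 and Caml, the other names of Wrb and Camlg, had log2 fold changes of -0.033 and 0.032 (limma adjusted p = 0.910 and 0.859).

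**Figure D3:**
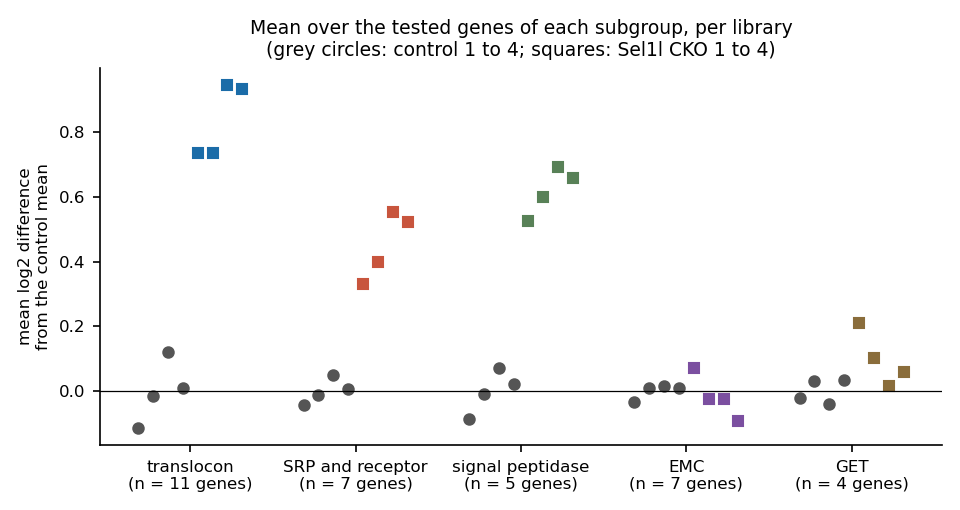
Mean log2 difference from the control mean over the tested genes of each subgroup (y axis, log2), 1 point per library, with control replicates 1 to 4 as grey circles and Sel1l CKO replicates 1 to 4 as coloured squares, in order. Translocon, SRP and signal peptidase means of all Sel1l CKO libraries are at least 0.33, and EMC means lie between -0.093 and 0.070.

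Read library by library, the subgroups kept their order in Sel1l CKO. The mean log2 difference from control of the 11 translocon genes was 0.74, 0.74, 0.95 and 0.93 in replicates 1 to 4. That of the 7 genes of SRP and its receptor was 0.33, 0.40, 0.56 and 0.52, and that of the 5 signal peptidase genes was 0.53, 0.60, 0.69 and 0.66. The EMC genes were at 0.070, -0.025, -0.024 and -0.093 and the GET genes at 0.21, 0.10, 0.016 and 0.058. In the first 3 subgroups, replicates 3 and 4 were higher than replicates 1 and 2, and in the EMC and GET subgroups replicate 1 was highest. In 13 of the 18 called genes both Sel1l CKO replicates 3 and 4 were above both replicates 1 and 2, against 31.3% of all genes tested. Among the control libraries, replicate 1 was the lowest in 13 of the 18, against 24.5% of all genes tested. Sel1l itself was at 1.32 and 1.23 RPKM in Sel1l CKO replicates 3 and 4 and at 0.917 and 0.876 RPKM in replicates 1 and 2, and its part in this was not tested. The 6 immediate early genes were also higher in replicates 3 and 4 than in replicates 1 and 2, in both genotypes, and their part was not tested. Neither the labels nor the methods name a batch. The median log2 fold change of the 34 genes was 0.35 from replicates 1 and 2 alone and 0.43 from replicates 3 and 4 alone.

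**Figure D4:**
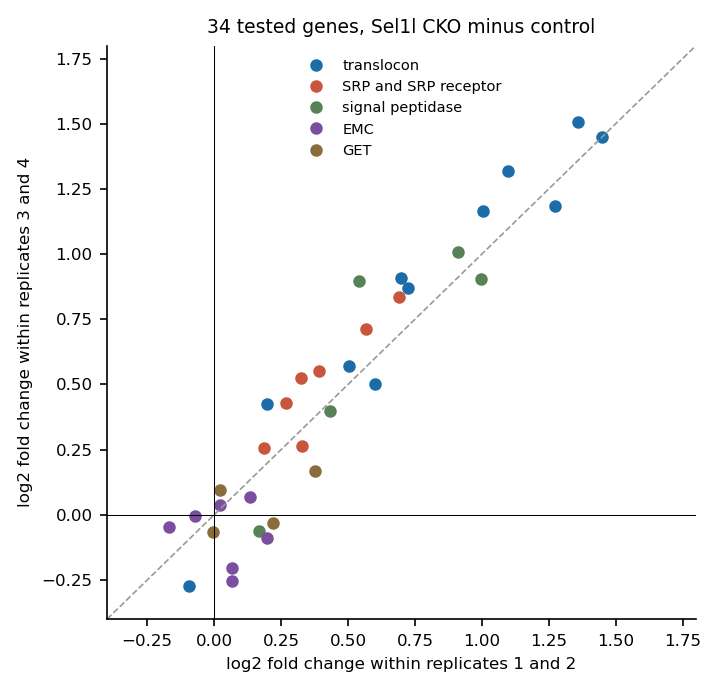
Log2 fold change of the 34 tested genes computed within replicates 1 and 2 (x axis) and within replicates 3 and 4 (y axis), coloured by subgroup, with the dashed line where both are equal. Translocon genes reach from -0.27 for Sec62 to 1.51 for Serp1 on the y axis, and the EMC genes stay at or under 0.068 on it.

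Levels of different genes depend on the length that RPKM divides by, which here spans introns. On this scale Emc6 had the highest control mean of the 39 genes, at 40.9 ± 2.39 RPKM (SD, n = 4). Recomputed per kilobase of exon from the recovered reads, the highest control mean was that of Sec61b at 99.9 RPKM per exon length, followed by Srp68 at 98.8 RPKM. Emc6 was at 43.9 RPKM on this scale, below Emc10 at 50.2 RPKM. The ratio of RPKM between genotypes within a gene does not depend on the length, but the level needed for the test and the fold change on the log2(RPKM + 0.1) scale do. Per exon length, the control means of Sec61a2, Tram2 and Emc2, which were under 1 RPKM per gene span, were 4.601, 2.86 and 5.19 RPKM.

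Further genes of the pathway were taken from a list made by known function. Of its 24 symbols, 22 were in the table, Hm13 under its other name H13, and 18 were tested. Of these, 4 were higher and 0 lower at a limma adjusted p under 0.05, against 4.27% and 1.01% of all genes tested, and the median log2 fold change was 0.046. The 4 were Ckap4 and Rrbp1, whose proteins tie the rough ER to microtubules and ribosomes, Lrrc59, a ribosome-binding ER membrane protein, and H13, which encodes signal peptide peptidase, the protease that clears cut signal sequences. Ckap4 was at 0.649, 0.780, 0.496 and 0.422 RPKM in the control libraries and at 1.998, 2.73, 1.66 and 1.87 RPKM in the Sel1l CKO libraries (log2 fold change 1.66, SE 0.19, adjusted p = 8.41e-04 by limma). Rrbp1 was at 1.81, 1.70, 1.72 and 1.65 RPKM in the control libraries and at 2.69, 2.86, 3.53 and 3.71 RPKM in the Sel1l CKO libraries (log2 fold change 0.84, SE 0.11, adjusted p = 0.00143 by limma). Lrrc59 was at 13.1, 13.2, 13.1 and 14.7 RPKM in the control libraries and at 23.8, 21.4, 19.7 and 19.98 RPKM in the Sel1l CKO libraries (log2 fold change 0.65, SE 0.077, adjusted p = 0.00106 by limma), and H13 at 6.63, 7.04, 7.05 and 6.91 RPKM in the control libraries and at 8.94, 8.72, 11.8 and 12.5 RPKM in the Sel1l CKO libraries (log2 fold change 0.58, SE 0.12, adjusted p = 0.0236 by limma). Groups did not overlap in any of the 4, and the call of H13 did not hold when any control library or Sel1l CKO replicate 3 was left out (adjusted p up to 0.0772 by limma) or when no filter was set (adjusted p = 0.0791 by limma). Every Sel1l CKO library was above every control library in 7 of the 18, against 9.15% of all genes tested. Without a call, this held for Nomo1, Tmem147 and the GET partner Ubl4a (log2 fold change 0.19, SE 0.061, adjusted p = 0.124 by limma). In the other direction, Tmem208 had the lowest log2 fold change of the 18, also without a call and with overlapping groups (log2 fold change -0.25, SE 0.083, adjusted p = 0.133 by limma). The 14 tested genes without a call included those of the multipass translocon and its partners (Tmco1, Ccdc47, Nomo1, Ncln, Tmem147 and Wdr83os, log2 fold changes from -0.13 to 0.13) and Mmgt1, the EMC subunit outside the list of 41, at -0.11.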

How the data were processed

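DN3 thymocyte RNA was sequenced as stranded mRNA libraries. Per the labels and methods, the authors aligned reads to GRCm38 with STAR 2.5.2b, used HTSeq 2.7 to count reads on genes, and deposited 1 unpooled column of RPKM values for each library. Groups and replicate numbers come from the sample titles. The members and lists were chosen with earlier results of these data known. RPKM values became log2(RPKM + 0.1), genes with a mean of at least 1 RPKM were tested with limma 3.58.1 (R 4.3.3, a trend of variance on level, no term beside genotype), two-sided, with Benjamini-Hochberg adjustment over all 6512 genes, and the call was an adjusted p under 0.05. Genes under 1 RPKM had exact permutation tests over the 70 assignments of 8 libraries, where the smallest possible p is 0.0286. With GENCODE M21 gene spans, 75.3% of genes gave whole reads (tolerance 0.02) in every library against 3.2% with exon lengths, so RPKM divides by a span with introns. With other lengths solved from the values, reads were recovered for 99.9% of genes with a value, 96.1% to 99.6% of each library. Alternatives were other pseudocounts, filters and scalings, array weights, voom on recovered reads, a replicate block, each library left out and, chosen after seeing the data, Sel1l CKO replicates 3 and 4 left out together and exon lengths. The 8 subunit pairs and the GCCACGT search were also chosen after seeing the data. Columns of no sample of the series numbered 0. The fits were first tested on simulated data. Values in every library are given for called genes and for the highest and lowest fold change and the highest level in each subgroup. Overlap with another gene of the table affects 11 of the 39 genes, 2 on the same strand. 1 further plasma and B cell marker was left out of the list of 7 and is not reported here. The cause of no difference was tested. Python 3.11.15, numpy 2.4.6, pandas 2.3.3 and matplotlib 3.10.9 were used.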

Additional observations from a re-analysis of the deposited data

Results flagged for a closer look

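In 3 of the 80 groups of 4 libraries compared (39 genes and Sel1l in 2 genotypes), 1 library lay far from the other 3, where chance gives about 4. Srprb was at 2.14 RPKM in control replicate 1 and at 2.35 to 2.37 RPKM in the other control libraries. Bag6 was at 27.2 RPKM in control replicate 3 and at 30.4 to 31.1 RPKM in the others. Emc2 was at 0.584 RPKM in Sel1l CKO replicate 2 and at 0.405 to 0.429 RPKM in the others.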

How the results depend on the processing

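The 18 calls held under other pseudocounts, scalings, variance models, voom, the split of replicates 1 and 2 from 3 and 4 as a term, and the replicate block, which called 236 genes higher and 81 lower over all genes and changed no call among the 34 genes tested. Without a filter the call of Sec11c was lost (adjusted p = 0.0797 by limma) and Srp54a gained one, as it did with voom, and at a mean of at least 5 RPKM 14 of the 18 were tested and kept. With each library left out, 16 to 18 held. Array weights added Srp14, Srp19 and Sec63. Same-numbered libraries of the 2 genotypes correlated at 0.0051 to 0.44, and differently numbered ones at -0.38 to 0.40, as deviations from the mean of each genotype. With 4 libraries per genotype and overlapping ranges, these values cannot tell whether the numbers pair the libraries. Over all genes, array weights called 458 higher and 182 lower, voom 341 and 160, the split of replicates as a term 343 and 182, and the fit without Sel1l CKO replicates 3 and 4, chosen after seeing the data, 703 and 625, against 278 and 66. The cause of these differences was not tested.

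The median of the 34 genes was 0.30 at a pseudocount of 1, 0.50 at a mean of at least 5 RPKM and 0.45 with array weights, against 0.38. For the translocon it was 1.15 at 5 RPKM, 0.96 with array weights and 0.68 without Sel1l CKO replicates 3 and 4. For SRP and its receptor it was 0.53 with array weights and 0.30 without those replicates. For signal peptidase it was 0.62 at a pseudocount of 1, 0.83 at 5 RPKM, 0.93 with array weights, 0.46 without those replicates and 0.62 to 0.84 with each library left out. In the further pathway list, 3 genes were higher without a filter, 2 were higher at 5 RPKM (Lrrc59 and H13), and array weights called 1 lower (Wdr83os). Sel1l stayed at -0.59 but lost its call without a filter (adjusted p = 0.0904 by limma) and with the replicate block (-0.59, adjusted p = 0.0601 by limma), and ranged from -0.69 to -0.51 with each library left out.

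Signs changed only for genes near 0 and without a call. Quantile normalization gave -0.012 for Spcs1, -0.012 for Emc6, -0.038 for Emc10 and -0.015 for Bag6. Array weights gave 0.0028 for Emc3, -0.091 for Emc6, 0.027 for Get1 and -0.025 for Caml. Without Sel1l CKO replicates 3 and 4, Emc4 was at 0.0027 and Emc10 at -0.014. With each library left out, Emc6 ranged from -0.010 to 0.11, Emc10 from -0.0095 to 0.070, Get1 from -0.12 to 0.061 and Caml from -0.017 to 0.089. Depth limited Emc9, with as few as 4 reads in a library.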
